A study of Mus musculus with 32 samples.

Results

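The genes described here are 8 members of the bile acid pathway of liver, chosen by name out of 20076 genes in the count table: the synthesis enzymes Cyp7a1, Cyp8b1, Cyp27a1 and Cyp7b1, the nuclear receptor Nr1h4 (FXR), the repressor Nr0b2 (SHP), the bile salt export pump Abcb11 (BSEP) and the sodium-dependent uptake carrier Slc10a1 (NTCP). Libraries described as liver mRNA came from 32 male C57BL/6J mice, of which 30 were used. The mice were Acadm-knockout animals, which lack the medium-chain acyl-CoA dehydrogenase (MCAD-KO), and wild-type littermates (WT). Each genotype received a low-fat or a high-fat semisynthetic diet, the latter based on palm oil, for 6 weeks. Food was then withdrawn overnight for 16 h (fasted) or left in place (fed), and every mouse was killed in the morning. This gave 8 groups of 3 or 4 separate mice, with ages labelled 7.5 to 16 and no unit. Whole liver pieces were taken, so fewer cells of a type and less RNA per cell cannot be told apart.

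Bile acids are made from cholesterol in hepatocytes. The classical route starts with Cyp7a1, the rate-limiting cholesterol 7α-hydroxylase, and Cyp8b1 adds the 12α-hydroxyl group of cholic acid. The alternative route starts with Cyp27a1, the mitochondrial sterol 27-hydroxylase, and goes on with Cyp7b1, the oxysterol 7α-hydroxylase. Bile acids activate FXR, which induces Nr0b2 and Abcb11, and Nr0b2 represses Cyp7a1 and Cyp8b1. Abcb11 pumps bile acids across the canalicular membrane into bile, and Slc10a1 takes them up from blood across the basolateral membrane.

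Libraries held 2031053 to 4292200 counts per mouse, and all 8 members passed the filter on low counts. Levels are given in CPM, a gene's counts relative to the library total after scaling by TMM, edgeR's library size correction. They come from reads at the 3′ end of transcripts and are compared between mice for one gene, never between genes. Acadm itself lay between 189.8 and 748 CPM in WT mice and between 8.98 and 37.1 CPM in MCAD-KO mice, with no overlap. Hepatocyte markers summed to 51378 to 81855 CPM in the 30 mice, and cholangiocyte markers to 54.7 to 109 CPM. The libraries left out by the rule that chose the data, 1 in each of 2 groups, stood apart. High-fat fasted MCAD-KO mouse 4 carried 43566 CPM of heart markers and 956 CPM of hepatocyte markers, and its members lay between 0.96 and 22.1 CPM. Low-fat fed WT mouse 2 had hepatocyte markers of 43305 CPM, cholangiocyte markers of 355 CPM and stellate cell markers of 1275 CPM. Its Cyp7b1 was 8.20 CPM, its Cyp8b1 53.0 CPM and its Slc10a1 71.0 CPM, below every mouse used, while its Cyp7a1 was 67.2 CPM, above the other low-fat fed WT mice. Results that rest on this mouse or on the first are given with and without them. Acinar pancreas markers reached 17370 CPM in high-fat fasted WT mouse 2 and 2533 CPM in high-fat fed MCAD-KO mouse 1, and counts were also made without this pair. Adrenal cortex markers reached 290 and 125 CPM in low-fat fasted MCAD-KO mice 3 and 4. Heart markers reached 334 CPM in high-fat fed MCAD-KO mouse 1 and 179 CPM in high-fat fed WT mouse 4.

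RefSeq promoter windows on GRCm38.p6 were at hand for 6 of the 8 members, and none for Cyp7a1 or Cyp7b1. The 250 bases before the annotated start of Abcb11, Nr0b2 and Cyp8b1 are given here, 5′ to 3′ on the gene's strand, because these 3 genes changed with fasting to an extent that differed between diets. Capitals mark matches to any of 5 motifs searched on both strands, which were picked after the windows had been read: AGGNCANTGNCCT, an inverted repeat with 1 base between its arms, the arrangement FXR binds as a heterodimer with RXR, AGGTCA, the nuclear receptor half-site, CAAGGNCA, the kind of site bound by Nr5a2 (LRH-1), CAAAGNNCA, the kind bound by Hnf4a, and TATAAA, the TATA box.
Abcb11 promoter, chr2:69342617-69342866, minus strand: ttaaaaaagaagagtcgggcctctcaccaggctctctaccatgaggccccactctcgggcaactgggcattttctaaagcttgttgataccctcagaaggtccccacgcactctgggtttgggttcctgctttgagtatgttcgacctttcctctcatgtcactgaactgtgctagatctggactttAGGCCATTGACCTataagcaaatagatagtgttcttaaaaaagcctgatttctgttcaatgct
Nr0b2 promoter, chr4:133553126-133553375, plus strand: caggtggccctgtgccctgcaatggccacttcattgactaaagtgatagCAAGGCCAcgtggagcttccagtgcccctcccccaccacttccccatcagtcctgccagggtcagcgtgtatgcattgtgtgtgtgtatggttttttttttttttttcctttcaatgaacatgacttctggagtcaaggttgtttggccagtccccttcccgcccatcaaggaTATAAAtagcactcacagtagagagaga
Cyp8b1 promoter, chr9:121916306-121916555, minus strand: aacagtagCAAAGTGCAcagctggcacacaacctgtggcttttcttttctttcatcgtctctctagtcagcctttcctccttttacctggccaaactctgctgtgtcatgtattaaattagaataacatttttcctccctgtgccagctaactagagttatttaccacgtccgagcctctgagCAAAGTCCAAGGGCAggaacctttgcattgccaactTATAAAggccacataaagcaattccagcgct
The Abcb11 window held the inverted repeat from base 63 to base 51 before the start, and a match to this motif stood in 28 of 32851 windows of the same length (0.085%). Its second part is also the single AGGTCA match of Abcb11, on the other strand, a motif found in 14.0% of windows. Nr0b2 held CAAGGNCA from base 201 to 194 (5.53% of windows) and TATAAA from base 28 to 23 (12.4%). Cyp8b1 held CAAAGNNCA from base 242 to 234 and again from 67 to 59 (5.49%), the latter overlapping a CAAGGNCA match from 60 to 53, and TATAAA from base 31 to 26. Such matches describe letters and are no measure of binding.

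Cyp7a1 (chr4:6265612-6275633, minus strand, GRCm38) was the member with the largest average fold change on fasting, though not in high-fat MCAD-KO mice taken alone. On the low-fat diet it was at 44.2, 23.1 and 14.8 CPM in the 3 fed WT mice used and at 331, 233, 105 and 312 CPM in the 4 fasted ones. Low-fat MCAD-KO mice had 9.29, 43.0, 6.52 and 35.4 CPM fed and 146, 355, 216 and 97.8 CPM fasted. In both genotypes every fasted mouse was above every fed mouse. How many of all genes tested were apart in this way was not counted, here or for any groups below. The difference was 3.15 ± 0.67 on the log2 scale (SE, adjusted p = 0.00331) in WT and 3.13 ± 0.61 (adjusted p = 0.000896) in MCAD-KO mice. On the high-fat diet WT mice had 71.2, 65.2, 18.5 and 35.6 CPM fed and 122, 145, 49.1 and 101 CPM fasted. High-fat MCAD-KO mice had 71.3, 19.2, 35.7 and 34.0 CPM fed and 66.99, 98.0 and 63.6 CPM in the 3 fasted mice used. Here fed and fasted mice overlapped in both genotypes, with differences of 1.14 ± 0.56 (adjusted p = 0.568) and 0.92 ± 0.60 (adjusted p = 0.842). By group mean the order ran from low-fat fasted (245 ± 103 CPM, SD, n = 4, in WT and 204 ± 112 in MCAD-KO) over high-fat fasted (104 ± 40.9 and 76.2 ± 19.0) and high-fat fed (47.6 ± 24.9 and 40.0 ± 22.1) to low-fat fed (27.4 ± 15.2 and 23.5 ± 18.4), and each group's range overlapped that of its neighbour in this order.

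Cyp8b1 (chr9:121914356-121916305, minus strand) rose with fasting on the low-fat diet as well. Its level was 252, 299 and 248 CPM in low-fat fed WT mice and 931, 834, 637 and 769 CPM in low-fat fasted WT mice. In MCAD-KO mice on this diet it was 123, 312, 187 and 275 CPM fed and 1394, 752, 686 and 888 CPM fasted. The groups were apart in both genotypes, by 1.57 ± 0.28 (adjusted p = 0.000261) and 2.05 ± 0.26 (adjusted p = 9.43e-07). High-fat WT mice had 208, 219.6, 279.8 and 277 CPM fed and 396, 260.3, 482 and 443 CPM fasted. High-fat MCAD-KO mice had 153, 199.7, 265 and 244 CPM fed and 345, 564 and 325 CPM fasted. On this diet 1 fasted WT mouse, the one with the most pancreatic RNA, fell within the fed range, the MCAD-KO groups did not overlap, and neither difference passed the test (0.68 ± 0.25, adjusted p = 0.288, and 0.93 ± 0.26, adjusted p = 0.133). The 4 fed groups had means of 216 to 267 CPM with overlapping ranges, whereas the fasted groups on the low-fat and the high-fat diet did not overlap in either genotype.

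Neither enzyme of the alternative route passed the test for fasting. Cyp27a1 (chr1:74713574-74737892, plus strand) ranged from 139 to 284 CPM in 15 fed mice, with a median of 198, and from 109.9 to 304 CPM in 15 fasted mice, with a median of 205. Its average fasting difference was 0.08 ± 0.11 (95% interval -0.14 to 0.31, adjusted p = 0.671), and the lowest value belonged to low-fat fasted MCAD-KO mouse 1. Cyp7b1 (chr3:18071950-18243338, minus strand, overlapped by the gene Gm23686, which the table also lists) spread more widely, from 78.7 to 533 CPM in fed mice and from 63.0 to 322 CPM in fasted mice. Within low-fat WT mice it was 378, 323 and 247 CPM fed and 322, 203, 63.0 and 274 CPM fasted. Low-fat MCAD-KO mice had 288, 533, 288 and 423 CPM fed and 231, 131, 249 and 305 CPM fasted. The average fasting difference of Cyp7b1 was -0.20 ± 0.22 (95% interval -0.65 to 0.25, adjusted p = 0.61), so that a change of Cyp7b1 was bounded less tightly than one of Cyp27a1.

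**Figure D1:**
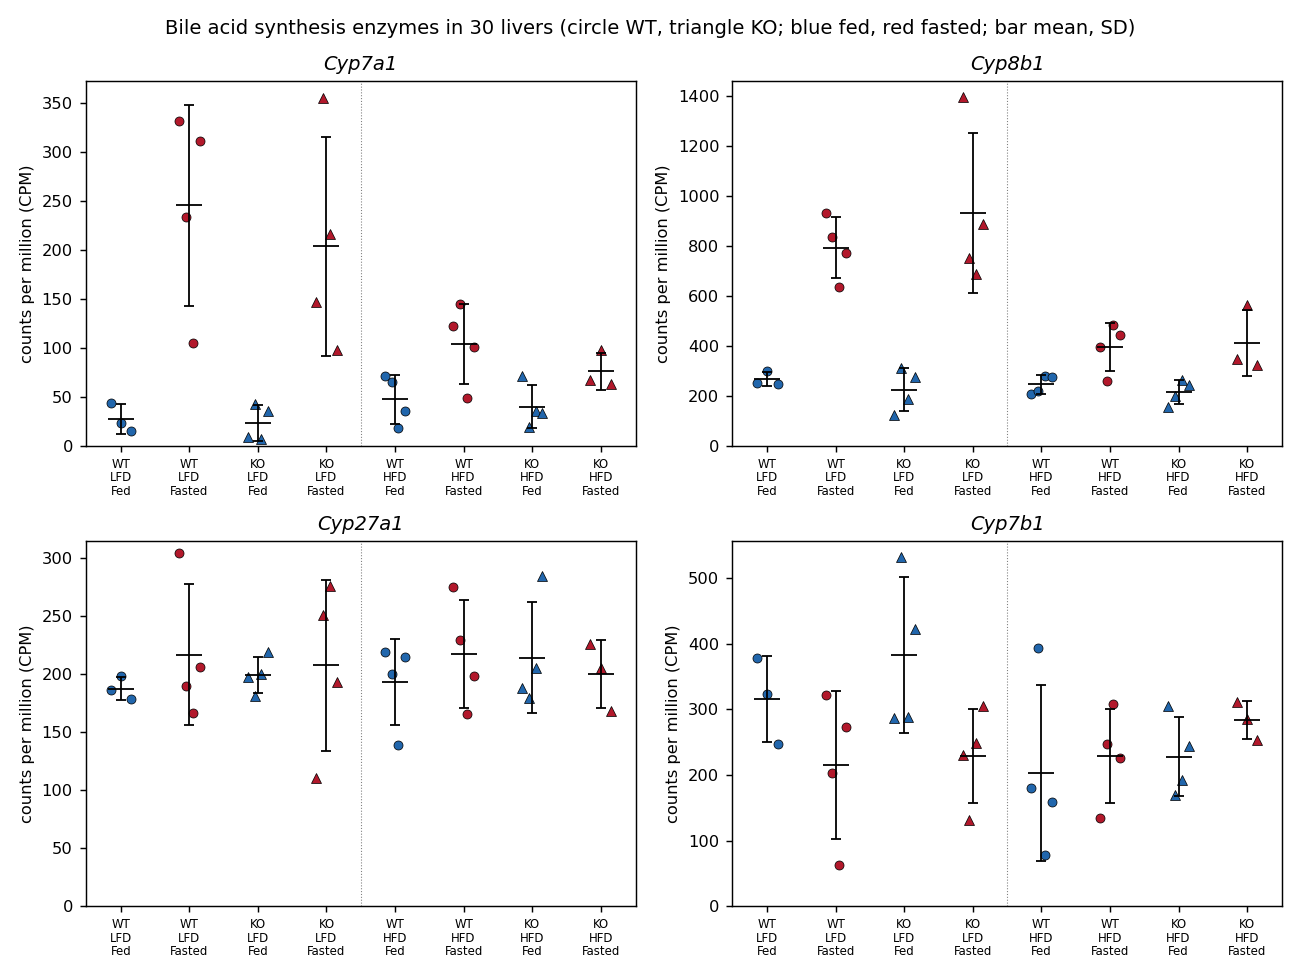
CPM (y axis, linear from 0) of the 4 synthesis enzymes in each of 30 mice, by group (x axis; LFD low-fat diet, HFD high-fat diet); circles are WT and triangles MCAD-KO mice, blue fed and red fasted, and bars give the mean and SD of 3 or 4 mice. Cyp7a1 and Cyp8b1 were apart between fed and fasted mice on the low-fat diet in both genotypes, while Cyp27a1 and Cyp7b1 overlapped throughout.

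Nr0b2 (chr4:133553376-133556536, plus strand), the repressor in the feedback loop, fell with fasting on the low-fat diet. Low-fat WT mice had 69.0, 88.5 and 62.2 CPM fed and 10.8, 4.81, 35.4 and 14.9 CPM fasted. The MCAD-KO mice on that diet had 49.0, 61.1, 88.6 and 112 CPM fed and 31.8, 20.3, 27.96 and 36.8 CPM fasted. No fasted mouse reached the range of the fed mice used in either genotype. Left-out low-fat fed WT mouse 2 was at 10.1 CPM, within the range of the fasted WT mice. Without that mouse the differences were -2.17 ± 0.45 (adjusted p = 0.00264) in WT and -1.42 ± 0.42 (adjusted p = 0.0229) in MCAD-KO mice. The MCAD-KO call was lost without any one of 3 mice (adjusted p up to 0.081 without fed mouse 4), and the WT call when those 2 groups were fitted alone (0.0642). On the high-fat diet WT mice had 74.3, 19.8, 42.6 and 45.9 CPM fed and 69.6, 31.2, 45.6 and 29.3 CPM fasted. High-fat MCAD-KO mice had 41.9, 26.4, 57.7 and 41.7 CPM fed and 44.4, 39.5 and 32.2 CPM fasted. Fed and fasted mice were intermingled there, with differences of -0.04 ± 0.41 (95% interval -0.88 to 0.80) and -0.12 ± 0.44 (95% interval -1.03 to 0.79). Nr0b2 was the member with the fewest counts, 12 in the lowest fasted mouse.

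Nr1h4 (chr10:89454234-89533585, minus strand), the bile acid receptor, rose modestly. It lay between 69.0 and 114 CPM in fed mice, with a median of 92.2, and between 52.9 and 174 CPM in fasted mice, with a median of 128. Averaged over both genotypes and diets the fasting difference was 0.43 ± 0.11 (adjusted p = 0.00353), or 1.34-fold, and it was positive in each of the 4 settings (0.29 to 0.55), none of which passed alone. Fed and fasted groups were apart in low-fat WT and in high-fat MCAD-KO mice, though neither difference passed the test (adjusted p = 0.268 and 0.715). Low-fat MCAD-KO mice had 95.1, 102, 69.0 and 85.7 CPM fed and 52.9, 174, 150.3 and 136 CPM fasted. Without fasted mouse 1 of that group, at 52.9 CPM, the difference there was 0.80 (adjusted p = 0.000485).

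Abcb11 (chr2:69238282-69342616, minus strand) was the only member in which no fasted mouse reached a fed one across all 30 mice, the 15 fed mice spanning 387 to 567 CPM and the 15 fasted mice 163 to 343 CPM. The share of all genes tested with such a separation was not counted. Left-out low-fat fed WT mouse 2 was at 244 CPM, within the range of the fasted mice. Low-fat WT mice had 431, 502 and 506 CPM fed and 178, 177, 256 and 179.7 CPM fasted. Low-fat MCAD-KO mice had 557, 492, 556 and 503 CPM fed and 180.5, 163, 226 and 192 CPM fasted. These groups were well separated, with differences of -1.28 ± 0.16 (adjusted p = 8.86e-07) and -1.47 ± 0.15 (adjusted p = 8.79e-09). High-fat WT mice had 404, 387, 404 and 447 CPM fed and 318, 343, 307 and 328 CPM fasted. High-fat MCAD-KO mice had 396, 445, 519 and 567 CPM fed and 308, 238 and 214 CPM fasted. The high-fat groups were still apart but closer in WT mice, where the difference was -0.34 ± 0.15 (adjusted p = 0.45), against -0.93 ± 0.16 (adjusted p = 0.00431) in MCAD-KO mice, a call that was lost without fasted mouse 3 (-0.82, adjusted p = 0.0717).

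Slc10a1 (chr12:80953183-80968705, minus strand), the uptake carrier, overlapped between fed and fasted mice in every setting. It ranged from 299 to 473 CPM in fed mice, with a median of 365, and from 216 to 666 CPM in fasted mice, with a median of 388. The average fasting difference was 0.11 ± 0.11 (95% interval -0.11 to 0.33, adjusted p = 0.569). Both extremes came from low-fat fasted MCAD-KO mice, mouse 1 at 216 CPM and mouse 2 at 666 CPM.

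**Figure D2:**
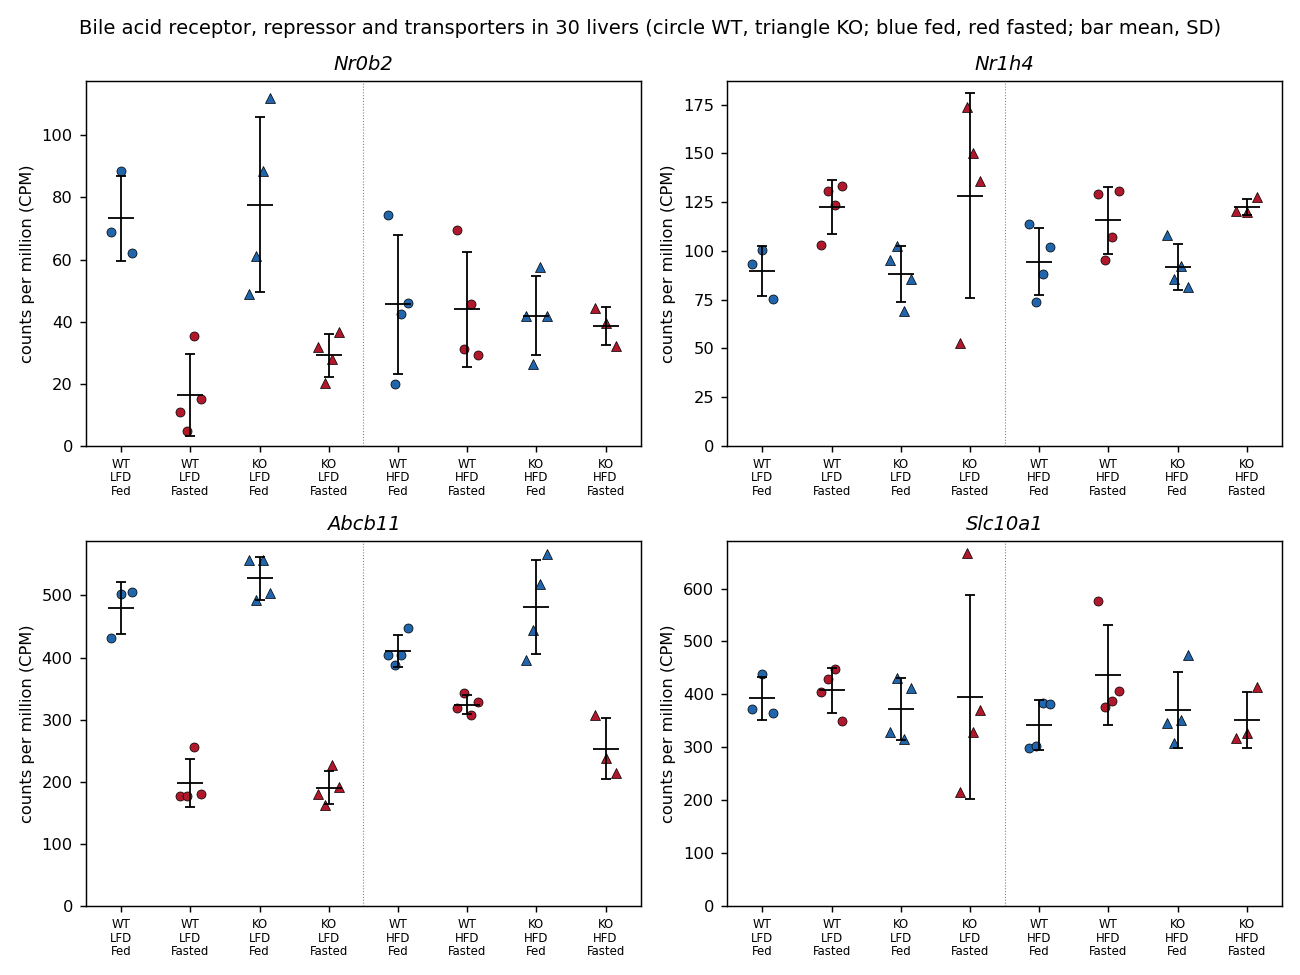
CPM (y axis, linear from 0) of Nr0b2, Nr1h4, Abcb11 and Slc10a1 in each of 30 mice, by group (x axis; LFD low-fat diet, HFD high-fat diet); circles are WT and triangles MCAD-KO mice, blue fed and red fasted, and bars give the mean and SD of 3 or 4 mice. Among the mice shown, all 15 fasted mice lay below all 15 fed mice for Abcb11, and Nr0b2 was apart only on the low-fat diet. Low-fat fed WT mouse 2, left out, had 244 CPM of Abcb11 and 10.1 CPM of Nr0b2, both within the fasted range.

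Taking fasting over both diets and genotypes, 5 of the 8 members changed, where 18.9% of 11566 genes tested did (1130 higher and 1057 lower). Cyp7a1 was 4.24-fold higher in fasted mice (2.08 ± 0.30, adjusted p = 1.71e-05), Cyp8b1 2.48-fold higher (1.31 ± 0.13, adjusted p = 3.85e-09) and Nr1h4 higher as above. Nr0b2 was 1.92-fold lower (-0.94 ± 0.22, adjusted p = 0.00241) and Abcb11 2.01-fold lower (-1.005 ± 0.079, adjusted p = 2.10e-12). The median size of the change, regardless of sign, was 0.68 over the members and 0.20 over all genes tested, on the log2 scale. These 5 calls held without any single mouse and without the pair carrying pancreatic RNA. With all 32 mice Nr1h4 was lost (adjusted p = 0.42). Ileal enterocyte markers (7 of 10 in the table, Fgf15 not among them) summed to 254 to 1301 CPM in fed and 403 to 3701 CPM in fasted mice. In each mouse 1 to 4 of the 7 had 0 counts, and Slc10a2, a gene of that list, averaged 3.85 CPM. The sum is therefore no measure of enterocyte content, and its part in these changes was not tested. The libraries are listed in flow cell lanes 7 and 8, and lane 7 held no low-fat fed WT mouse. The paper's methods give pools of 8 samples per lane, which does not match 32 libraries in lanes 7 and 8. With lane as a term all 5 calls held. The average within lane 7 left out the low-fat WT setting, so it is not the same average as over all mice used. Within lane 7 Cyp8b1 (1.32) and Abcb11 (-0.79) passed, whereas Cyp7a1 (1.82, adjusted p = 0.0628), Nr0b2 (-0.20, 0.81) and Nr1h4 (0.31, 0.538) did not. In lane 8 some groups held 1 mouse. The values there were 1.11 for Cyp8b1, -1.11 for Abcb11, -0.98 for Nr0b2, 0.53 for Nr1h4 and 1.76 for Cyp7a1.

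The fasting change depended on diet for 3 members, where 2.46% of all genes tested had such a difference. Expressed as the high-fat fasting change minus the low-fat one, it was 0.74 ± 0.16 for Abcb11 (adjusted p = 0.00602), 1.71 ± 0.43 for Nr0b2 (adjusted p = 0.0299) and -1.005 ± 0.26 for Cyp8b1 (adjusted p = 0.0283). In each case the sign was opposite to that of the low-fat fasting change, so fasting changed these genes less on the high-fat diet. Cyp7a1 had the largest value, -2.11 ± 0.60, and missed the threshold (adjusted p = 0.0647) with edgeR, while DESeq2 and limma voom gave 0.0135 and 0.0208. For Cyp27a1, Cyp7b1, Nr1h4 and Slc10a1 the 95% intervals were -0.54 to 0.35, -0.01 to 1.80, -0.58 to 0.29 and -0.37 to 0.51. Counted setting by setting, 4 members passed in low-fat WT mice (7.54% of genes tested) and 4 in low-fat MCAD-KO mice (13.8%), namely Cyp7a1, Cyp8b1, Nr0b2 and Abcb11 in both. In high-fat WT mice (0.424%) 0 passed with edgeR, DESeq2 or limma voom, 2 members having an unadjusted p under 0.05 with edgeR, and in high-fat MCAD-KO mice (0.527%) Abcb11 alone passed. With all 32 mice Cyp7a1 was the 1 member still called in low-fat WT mice, unlike Cyp8b1 (1.90 ± 0.63, adjusted p = 0.0928), Nr0b2 (-1.81 ± 0.59, adjusted p = 0.0868) and Abcb11 (-1.09 ± 0.45, adjusted p = 0.203). Nr0b2 in low-fat MCAD-KO mice (-1.42 ± 0.57, adjusted p = 0.146, and -1.42 ± 0.51, adjusted p = 0.072 with 31 mice) and Abcb11 in high-fat MCAD-KO mice (-1.33 ± 0.45, adjusted p = 0.16) were also lost. All 3 diet-dependent calls were lost with the left-out mouse low-fat fed WT 2 added back, those of Abcb11 (0.64 ± 0.18, adjusted p = 0.0655), Nr0b2 (1.54 ± 0.52, adjusted p = 0.154) and Cyp8b1 (-1.17 ± 0.36, adjusted p = 0.103). They were lost with all 32 mice too, in the same direction, for Abcb11 (0.44 ± 0.44, adjusted p = 0.769), Nr0b2 (1.35 ± 0.56, adjusted p = 0.346) and Cyp8b1 (-1.37 ± 0.61, adjusted p = 0.372). With lane as a term they held (adjusted p = 0.0101, 0.0404 and 0.0332). Lane 8 held mice of all 8 groups, but 1 mouse each of the high-fat fed WT, low-fat fasted MCAD-KO and high-fat fasted MCAD-KO groups. The difference within lane 8 was -1.12 for Cyp8b1, 1.08 for Nr0b2 and 0.39 for Abcb11. Lane 7 gave the difference for MCAD-KO mice alone, with the same signs and no call (0.84 for Abcb11, 1.35 for Nr0b2 and -0.76 for Cyp8b1). Without the pair carrying pancreatic RNA Nr0b2 missed the threshold (1.78 ± 0.45, adjusted p = 0.0522), its value being no smaller. The Abcb11 call held without any single mouse used, whereas Nr0b2 was lost without any one of 4 mice (adjusted p up to 0.07) and Cyp8b1 without any one of 6 (up to 0.0718), in both cases most without high-fat fasted MCAD-KO mouse 1.

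**Figure D3:**
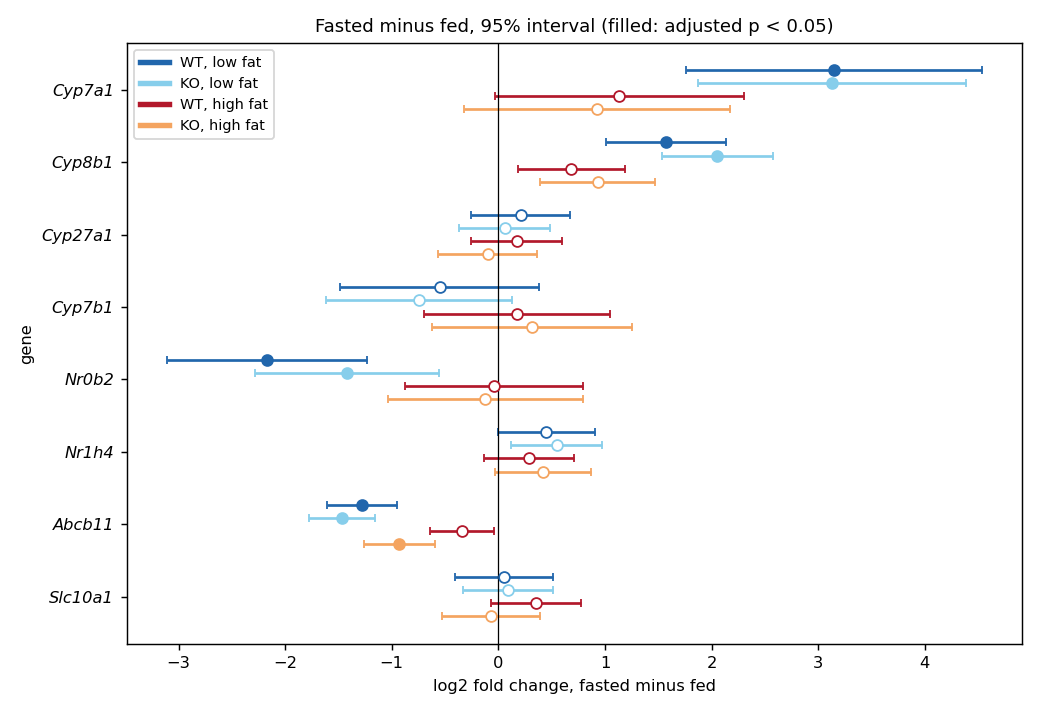
Fasting change of each member (y axis) as log2 fold change, fasted minus fed (x axis), in 4 settings of genotype and diet; points are estimates, bars 95% intervals, and filled points passed the test (adjusted p under 0.05). The dark and light blue low-fat points of Cyp7a1, Cyp8b1, Nr0b2 and Abcb11 are filled and farther from 0 than the red and orange high-fat points.

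Seen from the side of diet, using the same mice, all member calls in single settings fell in fasted animals, 2 in WT and 1 in MCAD-KO mice. Averaged over genotype and feeding, 1 of 8 members changed, where 3.49% of genes tested did. That was Cyp8b1, lower on the high-fat diet (-0.59 ± 0.13, adjusted p = 0.00653). Within lane 7, whose average left out fed WT mice, the value was -0.93 (adjusted p = 0.0649). It was -0.46 within lane 8, where some groups held 1 mouse. The call in the 30 mice was lost with low-fat fed WT mouse 2 added back (adjusted p = 0.136). Among fasted WT mice (1.12% of genes tested) Cyp8b1 was lower (-1.003 ± 0.25, adjusted p = 0.0341) and Abcb11 higher (0.71 ± 0.15, adjusted p = 0.0071), with no overlap between diets for either gene. Nr0b2 gave 1.44 ± 0.43 there (adjusted p = 0.121), and 2.07 (adjusted p = 0.00564) without low-fat fasted mouse 3, and it passed with DESeq2 and limma voom. Among fasted MCAD-KO mice (1.68%) Cyp8b1 was lower (-1.18 ± 0.27, adjusted p = 0.0207), again with no overlap, a call lost when those 2 groups were fitted alone (-1.17, adjusted p = 0.251). Abcb11 gave 0.41 ± 0.16 (adjusted p = 0.224) among fasted MCAD-KO mice. The Cyp8b1 calls were fragile, being lost without any one of 6 mice in WT (adjusted p up to 0.158 without high-fat fasted mouse 2, which carried pancreatic RNA) and of 3 in MCAD-KO animals (up to 0.145 without high-fat fasted mouse 3). With all 32 mice the fasted calls were lost, those of Cyp8b1 (-1.004 ± 0.61, adjusted p = 0.804) and Abcb11 (0.71 ± 0.44, adjusted p = 0.818) in WT and Cyp8b1 (-1.59 ± 0.62, adjusted p = 0.168) in MCAD-KO mice. The WT differences kept their size and their errors grew. With 31 mice those of Cyp8b1 were lost in WT (-1.003 ± 0.35, adjusted p = 0.231) and in MCAD-KO mice (-1.18 ± 0.39, adjusted p = 0.156). For Cyp7a1 the fasted mice gave -1.24 ± 0.55 in WT and -1.42 ± 0.61 in MCAD-KO animals, which did not pass (adjusted p = 0.349 and 0.306). No member passed with edgeR, DESeq2 or limma voom among fed WT mice (0.0778% of genes tested), where 0 had an unadjusted p under 0.05 with edgeR, or among fed MCAD-KO mice (0.00865%), where 1 did, Nr0b2 (-0.89 ± 0.40, adjusted p = 0.647).

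**Figure D4:**
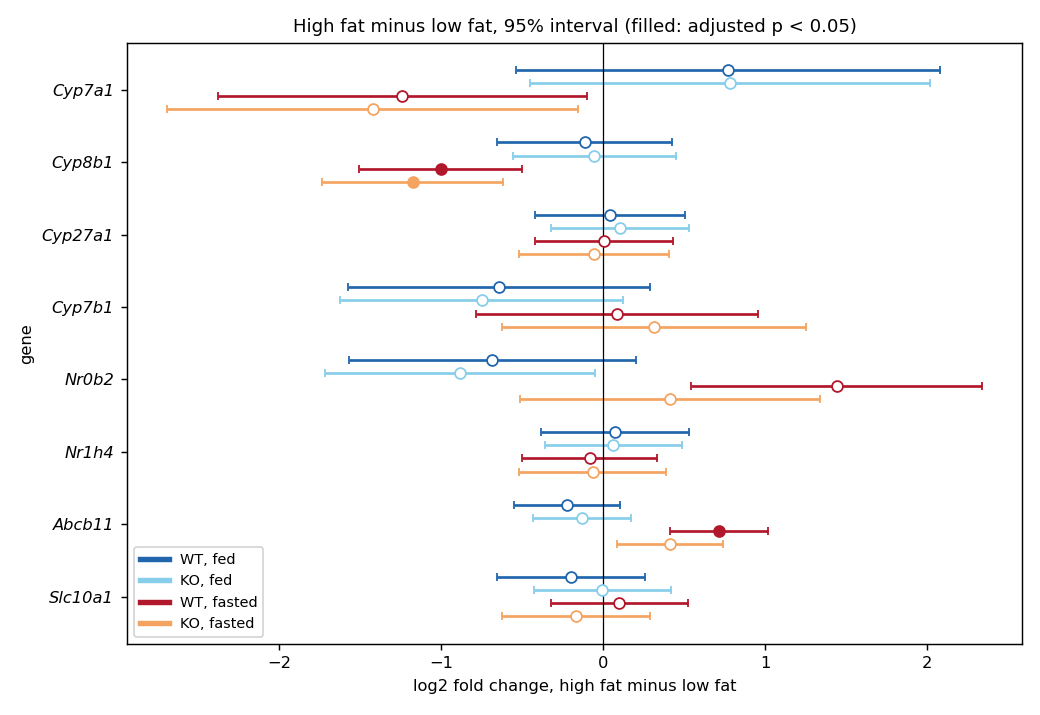
Diet difference of each member (y axis) as log2 fold change, high fat minus low fat (x axis), in 4 settings of genotype and feeding state; points are estimates, bars 95% intervals, and filled points passed the test (adjusted p under 0.05). The filled points are Cyp8b1 in both fasted settings and Abcb11 in fasted WT mice.

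No member passed the test between MCAD-KO and WT mice with edgeR, DESeq2 or limma voom. With edgeR 0 had an unadjusted p under 0.05 on average, and in single settings 1 did, Abcb11 in high-fat fasted mice (-0.36 ± 0.16, adjusted p = 0.999). Acadm was the 1 gene called on average and in each of the 4 settings (0.00865% of genes tested), at -4.44 ± 0.12. The 95% intervals of the average genotype difference, MCAD-KO minus WT, were -0.91 to 0.31 for Cyp7a1, -0.30 to 0.22 for Cyp8b1, -0.21 to 0.24 for Cyp27a1 and -0.24 to 0.66 for Cyp7b1. For the regulators and transporters they were -0.29 to 0.60 for Nr0b2, -0.20 to 0.24 for Nr1h4, -0.17 to 0.15 for Abcb11 and -0.30 to 0.14 for Slc10a1. The interval of Abcb11 was the narrowest and that of Cyp7a1 the widest. No gene passed the test for a fasting change or a diet change that differed between genotypes with edgeR (0% in both cases), with 573 and 397 genes at an unadjusted p under 0.05, and DESeq2 and limma voom called 0 as well. Abcb11 was among the former, its fasting change being -0.39 ± 0.16 in MCAD-KO relative to WT mice (adjusted p = 0.952).

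Other genes of the pathway were taken as 4 lists, without the members. Of 19 synthesis genes tested, 6 rose and 5 fell with fasting on average, where 18.9% of all genes tested were called (median difference 0.09, against 0.00 over all genes tested). The 4 with the smallest p were Stard4, a cholesterol carrier protein (-1.90 ± 0.12, adjusted p = 7.65e-14), Por, the reductase that supplies electrons to microsomal P450 enzymes (2.36 ± 0.14, adjusted p = 1.92e-13), Slc27a2, a very long-chain acyl-CoA synthetase (1.13 ± 0.10, adjusted p = 7.68e-11), and Akr1c6, a hydroxysteroid dehydrogenase (-1.06 ± 0.11, adjusted p = 1.73e-09). Por went from 31.2 ± 9.81 CPM (SD, n = 3) in low-fat fed to 319.8 ± 118 CPM (n = 4) in low-fat fasted WT mice, and from 44.2 ± 7.54 to 109.9 ± 36.8 CPM (n = 4 each) on the high-fat diet. The fasting change differed between diets for 5 synthesis genes (2.46% of all genes tested), for Por by -2.02 ± 0.28, adjusted p = 7.99e-05. So did those of Stard4 (1.86 ± 0.24, adjusted p = 1.52e-05) and Akr1c6 (1.43 ± 0.22, adjusted p = 0.000103), as well as Cyp2c70, which makes muricholic acids, and Acox2, a peroxisomal oxidase of the side chain. That pair was named after its values were seen (2.15 ± 0.51, adjusted p = 0.0241 for Cyp2c70, and -0.57 ± 0.15, adjusted p = 0.0258 for Acox2). On the high-fat diet 3 synthesis genes were called on average (3.49% of all genes tested), all higher, Akr1c6 (0.81 ± 0.11, adjusted p = 1.39e-05), Stard4 (0.82 ± 0.12, adjusted p = 6.52e-05) and Cyp2a12 (0.30 ± 0.087, adjusted p = 0.0452). The amino acid conjugating enzyme Baat, picked after its values were seen, rose with fasting by 0.33 ± 0.085, adjusted p = 0.00423.

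Among 23 regulators tested, 7 rose and 4 fell with fasting, against the same 18.9% of all genes tested (median 0.10, against 0.00). The 4 with the smallest p were Nr1i3 (CAR), a xenobiotic receptor (1.52 ± 0.096, adjusted p = 1.18e-14), the forkhead factor Foxa2 (-0.91 ± 0.11, adjusted p = 4.22e-08), the glucocorticoid receptor Nr3c1 (-0.42 ± 0.090, adjusted p = 0.00058) and Fgfr4, the hepatic receptor for the intestinal hormone FGF15 (-0.72 ± 0.16, adjusted p = 0.000631). Nr1i3 and Nr3c1 were also the 2 regulators whose fasting change differed between diets, as it did for 2.46% of all genes (-0.96 ± 0.19, adjusted p = 0.00309 for Nr1i3, and 0.73 ± 0.18, adjusted p = 0.0183 for Nr3c1). Diet called 5 regulators, 3 higher and 2 lower on the high-fat diet, against 3.49% of all genes. They were the clock output gene Dbp (2.33 ± 0.39, adjusted p = 0.00112), Foxa2 (0.50 ± 0.11, adjusted p = 0.0049), Nfil3, which opposes Dbp at shared sites (-0.90 ± 0.20, adjusted p = 0.0123), Nr1i3 (0.35 ± 0.094, adjusted p = 0.0284), and the coactivator Ppargc1a, outside the naming rule (-0.54 ± 0.15, adjusted p = 0.0384). Vdr and Gpbar1 were too low to test, and Fgf15 was not analysed here.

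Of 10 other canalicular genes 2 were called for fasting, a share near the 18.9% of all genes tested (list median -0.04, against 0.00). Abcb4, the phospholipid floppase of bile, rose with fasting (1.04 ± 0.096, adjusted p = 1.45e-10) and the aminophospholipid flippase Atp8b1 fell (-0.72 ± 0.12, adjusted p = 2.05e-05). Both changes also differed between diets, against 2.46% of all genes (-0.81 ± 0.19, adjusted p = 0.0148, and 0.92 ± 0.24, adjusted p = 0.0294). Abcb4 was at 103 ± 6.93 CPM in low-fat fed and 265 ± 40.2 CPM in low-fat fasted WT mice. With diet, Slc47a1, an exporter of organic cations, was the 1 canalicular gene called, against 3.49% of all genes (0.36 ± 0.095, adjusted p = 0.0238). Of 12 genes tested from the basolateral list, 3 rose and 4 fell with fasting, again against 18.9% of all genes (median -0.11, against 0.00). The 4 that fell included Slc10a2, an ileal enterocyte marker above, at a mean of 3.85 CPM (-1.07 ± 0.37, adjusted p = 0.0369). The first 4 by p were the exporter Abcc3 (0.69 ± 0.11, adjusted p = 3.70e-06), the organic anion carriers Slco1a4 (1.26 ± 0.19, adjusted p = 1.35e-05) and Slco1a1 (-0.61 ± 0.10, adjusted p = 1.96e-05), and the epoxide hydrolase Ephx1 (0.64 ± 0.11, adjusted p = 5.22e-05). Slco1a1 and Slco1a4 were the 2 basolateral genes whose fasting change differed between diets, against 2.46% of all genes (1.03 ± 0.20, adjusted p = 0.00313, and -1.85 ± 0.38, adjusted p = 0.00759). Diet called 2 basolateral genes, against 3.49% of all genes, both higher on the high-fat diet, Abcc3 (0.92 ± 0.11, adjusted p = 6.05e-07) and Slco1b2 (0.42 ± 0.080, adjusted p = 0.00144). Abcc3 passed in fed mice of both genotypes, from 26.7 ± 7.34 to 60.6 ± 5.69 CPM in WT (adjusted p = 0.0303) and from 23.2 ± 2.45 to 54.4 ± 14.6 CPM in MCAD-KO mice (0.00862). Ch25h, Slc51a and Slc51b were too low to test.

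The genes with the most similar profile over the 30 mice, by Pearson's r of log2(CPM + 1), were named for each member as a description, the mice sharing diet and feeding groups. For Cyp7a1 they were Por (0.848), Slc25a20 (0.844) and Bnip3 (0.842), and for Cyp8b1 Glrx (0.955), Mat1a (0.923) and Picalm (0.917). Nr0b2 was closest to Osgin1 (0.783), Pm20d1 (0.777) and Pdzk1ip1 (0.751). The receptor Nr1h4 was closest to Acad11 (0.838), Etfdh (0.830) and Hacl1 (0.822), and Abcb11 to Nat8f1 (0.948), Cyb5b (0.931) and Cyp4f14 (0.925). For the members that did not pass the test for fasting, the leading genes were mt-Cytb for Cyp27a1 (0.762), C6 for Cyp7b1 (0.812) and Nit1 for Slc10a1 (0.794).

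Whether the members varied together between mice of the same group was tested after each group's mean had been removed. Of 28 pairs, 0 passed a two-sided permutation test over 30 mice after Benjamini-Hochberg adjustment. By Pearson's test 3 pairs had an unadjusted p under 0.05, all with Cyp7a1, and by Spearman's the pair of Nr0b2 and Abcb11 did as well, with a rho of 0.39 (permutation p = 0.0499, adjusted 0.349) and an r of 0.42 (p = 0.0615, adjusted 0.299), which was 0.38 without the 2 mice farthest from the median of Nr0b2. Cyp7a1 and Cyp7b1 had a Pearson's r of 0.49 (permutation p = 0.01785, adjusted 0.237) and a Spearman's rho of 0.49 (p = 0.0218, adjusted 0.251), and r was 0.46 without the 2 mice farthest from the median of Cyp7a1. Cyp7a1 and Abcb11 had an r of -0.43 (permutation p = 0.0186, adjusted 0.237) and a rho of -0.45 (p = 0.0161, adjusted 0.251), and r was -0.41 without 2 mice. Cyp7a1 and Cyp27a1 had an r of 0.43 (permutation p = 0.0254, adjusted 0.237) and a rho of 0.43 (p = 0.0268, adjusted 0.251), and r was 0.47 without 2 mice.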

How the data were processed

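The authors deposited whole-number read counts per Ensembl gene for 32 libraries, without normalization. Per their methods and processing notes, QuantSeq 3′ libraries were aligned to GRCm38 with HISAT 0.1.5, handled with SAMtools 1.2 and counted with HTSeq 0.6.1p1 in union mode; the strand setting is not given in the sources used here. Counts of 30 mice in 8 groups were fitted together by edgeR 4.0.16 (R 4.3.3; TMM, filterByExpr with a minimum count of 10, robust quasi-likelihood, group means), and p-values were adjusted by Benjamini-Hochberg over 11566 genes per comparison at 0.05. Average contrasts weighted the 4 settings equally, but within lane 7 the settings that need low-fat fed WT mice were left out of the average. DESeq2 1.42.0, limma voom (limma 3.58.1), other filters and scalings, lane, age, a replicate block, all 32 or 31 mice and every single mouse left out were alternatives; leaving out the pair with pancreatic RNA and fitting interactions within a lane were chosen after seeing the data. The members, gene lists and comparisons were chosen with earlier results of these data known. Named were all members, up to 4 genes per pathway list and average comparison by smallest p, and the 3 most similar genes per member. Gene coordinates came from GENCODE on GRCm38 and promoters from RefSeq. Mice of a group were separate animals, whose litters and cages the labels do not give.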

Additional observations from a re-analysis of the deposited data

Results flagged for a closer look

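Of 48 member and group combinations with 4 mice, 2 had a mouse set apart from the other 3 by Dixon's criterion at 95%, which chance gives in about 1 of 20. Abcb11 was at 256 CPM in low-fat fasted WT mouse 3, against 177.3 to 179.7 CPM in the other 3. Slc10a1 was at 577 CPM in high-fat fasted WT mouse 1, against 377 to 406 CPM in the other 3.

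The fasting change differed between diets by the test of that difference for 3 members, in high-fat minus low-fat terms by -1.005 for Cyp8b1, 1.71 for Nr0b2 and 0.74 for Abcb11.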

How the results depend on the processing

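The count of genes changed by fasting (2187), the 5 members among them and the absence of a genotype call among members kept their side of the threshold under DESeq2, limma voom, other scalings and filters, and lane or age as a term. Depth, at most 4292200 counts per mouse, limits what can be detected for members with few counts. In no case below was the cause tested.

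With all 32 mice the counts were 81 genes for diet (404 in the 30 mice), 22 for a diet-dependent fasting change (285), 0 members for diet (1) and 0 for the diet-dependent change (3), 4 member calls over the 4 fasting settings (9), 0 over the diet settings (3) and 7 correlated pairs of members (0). With 31 mice, low-fat fed WT mouse 2 included, they were 152 genes and 0 members for the diet-dependent change, 0 members for diet and 1 over the diet settings. DESeq2 gave 430 genes and the fit without the 2 mice with pancreatic RNA 156 genes for the diet-dependent change. Without a filter 1 member passed for the diet-dependent change and 1 over the diet settings. Within lane 7, 376 genes and 2 members passed for fasting, and 117 genes and 0 members for diet. Within lane 8, 4 genes passed for genotype (1), 121 genes and 1 member for the diet-dependent fasting change and 9 genes for a genotype-dependent one (0). Within lane 7 the diet-dependent change of MCAD-KO mice alone called 0 genes and 0 members with edgeR, with 773 genes at an unadjusted p under 0.05.

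Leaving out 1 mouse at a time gave 170 to 333 genes and 1 to 4 members for the diet-dependent change, the lowest member count without high-fat fasted MCAD-KO mouse 1 or low-fat fasted WT mouse 1, and 1 to 2 genes for genotype. Values that passed no test turned in sign in some of these fits. Those of Cyp8b1 between genotypes ran from -0.24 to 0.20 in high-fat fasted mice and from -0.0329 to 0.35 in low-fat fasted mice, and those of Slc10a1 from -0.29 to 0.29 for fasting in low-fat MCAD-KO mice and from -0.37 to 0.21 for diet in fasted MCAD-KO mice.

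With all 32 mice the sign turned to -0.30 for the diet-dependent fasting change of Slc10a1. It turned to -0.00350 and -0.17 for the genotype-dependent fasting change of Cyp8b1 and Nr1h4, and to -0.31 and -0.27 for the genotype-dependent diet change of Cyp27a1 and Nr1h4. For diet in fed WT mice it turned to 0.21 for Cyp8b1 and 0.13 for Slc10a1, for genotype in low-fat fed mice to 0.0733 and 0.25, and for genotype in high-fat fasted mice to -0.35 for Cyp8b1 and -0.33 for Nr1h4. With 31 mice the same fed comparisons gave 0.21 and 0.13 for diet and 0.0720 and 0.25 for genotype. Cyp27a1 turned to -0.15 for genotype within lane 7 and to -0.23 for fasting within lane 8, where diet gave -0.31 for Nr0b2 and 0.0756 for Slc10a1, the genotype-dependent fasting change -0.11 for Nr0b2, and the genotype-dependent diet change 0.63 for Cyp7a1 and 0.20 for Slc10a1.

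Mice with the same number in different groups were separate animals, but the number went largely with the lane. A replicate block therefore overlaps a term for lane. The median correlation of the deviations of same-numbered mice was 0.0066 over 98 pairs, of which 3 exceeded 0.1. A fit with the replicate block called 2124 genes and 5 members for fasting, 236 genes and 4 members for the diet-dependent change, Cyp7a1 being added (adjusted p = 0.0457), and 360 genes and 1 member for diet. Among fasted WT mice the block ended the diet call of Cyp8b1 (-1.01 ± 0.26, adjusted p = 0.0529) and added Nr0b2 (1.51 ± 0.36, adjusted p = 0.0416), and it changed no other member call.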

Other observations

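Low-fat fasted MCAD-KO mouse 1 stood at an end of its group for several members, with 109.9 CPM of Cyp27a1, 52.9 CPM of Nr1h4 and 216 CPM of Slc10a1, each the lowest of the 30 mice, and 1394 CPM of Cyp8b1, the highest. Its Abcb11, at 180.5 CPM, lay within the range of its group. Its macrophage markers summed to 712 CPM, against 283 to 345 CPM in the other 3 mice of its group, and its sinusoidal endothelial cell markers to 462 CPM, against 312 to 367 CPM, with all 9 and all 7 markers above 0 in each of these mice. The highest macrophage sum of the 30 mice, 766 CPM, belonged to high-fat fasted WT mouse 4. That mouse had 198 CPM of Cyp27a1, 131 CPM of Nr1h4 and 406 CPM of Slc10a1. The part of these cells in the values of low-fat fasted MCAD-KO mouse 1 was not tested.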
